A study of Mus musculus with 4 samples.

Results

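Kinesin and centromere protein genes were followed in mouse leukemic cells with and without a knockout of Ezh2. The members were the probe sets whose single gene symbol in the platform annotation begins with Kif followed by a digit or c, or with Cenp followed by a letter. These were 143 of 34945 probe sets with 1 symbol, and they named 62 genes, 41 of them kinesins and 21 centromere proteins. By known role the kinesins were divided into 14 mitotic, 15 transport and 12 other genes, and the centromere proteins into 15 of the constitutive network and 6 others. These are MLL-AF9 leukemic cells, driven by a fusion oncogene of acute myeloid leukemia, and they were taken out of the marrow of C57BL/6 recipients. A group of 2 arrays carried wild-type cells and another of 2 arrays carried cells whose genotype entry is Ezh2 KO, a loss of the catalytic subunit of the Polycomb complex PRC2. A further entry for the knockout samples says that their recipients were repopulated with Ink4a-/-Arf-/- marrow, which conflicts with the genotype entry, and the group is called Ezh2 KO here after the latter. No age, promoter or Cre driver is given, and whether a group's samples are from different animals or leukemias is not stated. P-values therefore rest on the variation among these 4 arrays alone, part or all of which may be technical.

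Kinesins are motor proteins that use ATP to move along microtubules or to change their length. Mitotic kinesins build the spindle, move chromosomes and finish cell division, and their genes are switched on as cells near mitosis, so their mRNA is found in dividing cells. Transport kinesins carry vesicles, organelles and mRNAs and are made through the whole cell cycle, several of them mainly in neurons. Centromere proteins mark the site on each chromosome where the kinetochore forms and link it to the spindle. In bulk RNA, more cells in mitosis and more RNA per cell cannot be told apart.

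The arrays agreed closely, with correlations of log2 intensity over 13916 tested genes of 0.985 between the wild-type arrays, 0.986 between the knockout arrays and 0.977 to 0.979 across. All 7 leukemic myeloid markers on the array lay above the intensity filter of 19.96, among them Ptprc, Mpo, Hoxa9 and Meis1. Their summed intensity was 62537 and 64203 in the wild type and 72194 and 68472 in the knockout, with Mpo the largest part. Of the 7 markers 6 had a positive and 1 a negative log2 change. At a limma adjusted p under 0.05, 2 were higher (28.6%, beside 5.55% of all genes) and 0 lower. Itgam was at 1099 and 1168 in the wild type and 1991 and 1813 in the knockout. Csf1r was at 3057 and 3028 against 3965 and 4583. Whether the groups differ in maturation was not tested. Markers of other cells were low. The erythroid list (3 of 4 markers above the filter) summed to 211 and 215 in the wild type and 181 and 225 in the knockout, and the T-lineage list (2 of 5) to 187 and 124 against 247 and 103. The megakaryocyte list (4 of 5) summed to 335 and 352 against 510 and 410, the stroma and endothelium list (4 of 5) to 499 and 485 against 359 and 453, and the B-lineage list (3 of 5) to 864 and 858 against 874 and 953, nearly all of it Cd79b. No marker was at exactly 0, and the B-lineage genes Cd79a and Ebf1 and the T-lineage genes Cd4, Cd3d and Cd3g were below the filter. The part of these cells in the results below was not tested. Ezh2 itself, read by a single probe set whose position relative to the deleted part is not known here, was at 5216 and 5315 in the wild type and at 4989 and 4991 in the knockout, which checks nothing about the deletion.

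The comparison asks whether genes of the spindle and the centromere differ between the wild-type and Ezh2 KO leukemic cells, and whether mitotic kinesins move differently from transport kinesins. Of the 62 genes 56 passed the filter and were tested, and 120 of the 143 probe sets did. At an adjusted p under 0.05 (limma, Benjamini-Hochberg over all 13916 genes) 8 of the 56 changed, 6 higher and 2 lower in the knockout. Over all genes tested 11.6% changed, 5.55% higher and 6.01% lower, where 10.7% of the members were higher and 3.57% lower. These shares were not tested against each other. All calls need limma's trended prior, in which the expected spread depends on brightness. When 1 untrended prior was used for all genes, 0 genes passed (2595 at an unadjusted p under 0.05). Median centring, an alternative that sets every array to 1 median, left 402 genes higher and 1014 lower over all genes in place of 772 and 836. The higher genes were Cenpv, Cenpc1, Cenpf, Kif20a, Cenpp and Cenpa, and the lower ones were Cenpb and Kif1b.

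**Figure D1:**
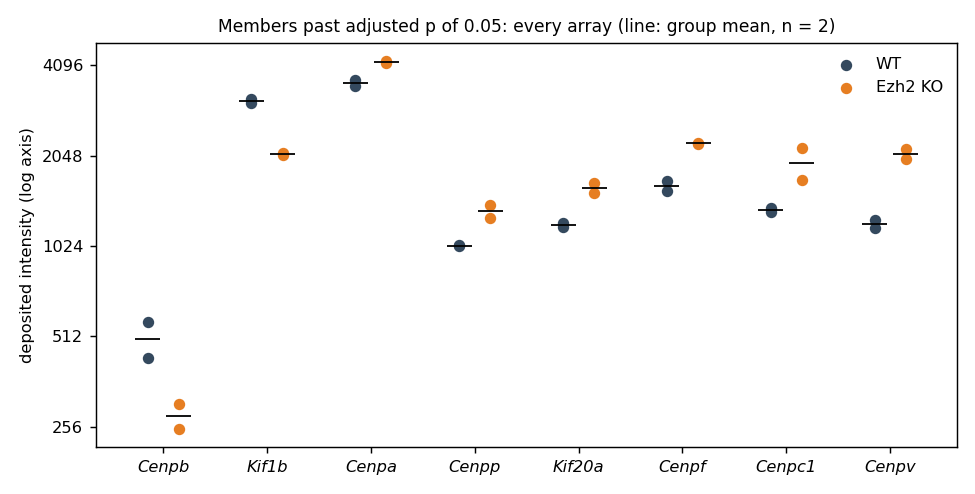
Deposited intensity on a log axis of the 8 member genes past an adjusted p of 0.05, with both wild-type arrays (dark) and both Ezh2 KO arrays (orange) as points and each group's mean as a line (n = 2). In each of the 8 genes, which were picked by that threshold on these same arrays, the groups do not overlap. Among all genes tested 52.5% do not overlap either. Cenpb and Kif1b are lower and the other 6 higher in the knockout.

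On the probe set used for each gene, the mitotic kinesins were nearly all slightly higher in the knockout, while few passed the threshold one by one. Of 13 tested genes 11 had a positive log2 change, where 50.9% of all genes did, and the median was 0.29 against 0.007 over all genes. Of the 5 genes with several probe sets above the filter, 2 (Kif22 and Kif23) had the same sign on all of them. In 9 of the 13 both knockout arrays lay above both wild-type arrays and in 0 they lay below, where the groups did not overlap in 52.5% of all genes, 26.2% in each direction. A single gene was called higher (7.69%, beside 5.55% of all genes) and 0 lower, with 8 higher and 0 lower at an unadjusted limma p under 0.05, beside 11.8% and 13.1% of all genes. Centring each array on its median moved the median of all genes from 0.007 to -0.09 and that of the mitotic kinesins to 0.19. Still 11 of the 13 were positive, beside 5224 of all 13916 genes. With this centring 0 mitotic kinesins were called, beside 402 genes higher and 1014 lower over all genes. Mitotic kinesins at an unadjusted limma p under 0.05 fell from 8 to 2, beside 3309 over all genes.

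Kif20a, the central spindle motor of cytokinesis, was the called gene. It stood at 1221 and 1184 intensity units on the wild-type arrays and at 1655 and 1541 on the knockout arrays. Both knockout arrays were thus above both wild-type arrays, with group means of 1203 ± 26.3 and 1598 ± 81.0 (SD, n = 2 arrays, as for all SDs below). The rise was 1.32-fold, or 0.40 on the log2 scale (SE 0.08, limma adjusted p = 0.0092). It was 0.35 to 0.46 when 1 array was left out. Such a fit leaves a group of 1 array with no spread of its own, so only sizes are given for it here and below. With median centring the call was lost (0.31, adjusted p = 0.0859).

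The motors that set up and hold the bipolar spindle had changes of similar size that did not pass. Kif11 (Eg5), which slides antiparallel microtubules apart, was at 2114 and 2735 in the wild type and 3300 and 2827 in the knockout. Its log2 change was 0.34 (SE 0.12, limma adjusted p = 0.0946). The groups did not overlap, though the wild-type arrays lay far apart. Single arrays moved this value. Dropping the first or second wild-type array gave 0.16 or 0.53. Dropping the first or second knockout array gave 0.23 or 0.45. Its other 2 probe sets had 0.16 and -0.07, and the mean of all 3 gave 0.14 (adjusted p = 0.637). Kifc1, a minus-end motor that focuses spindle poles, was at 482 and 426 against 540 and 576, a log2 change of 0.29 (SE 0.12, adjusted p = 0.153). Its probe set may also read Kifc5b, a near-identical gene elsewhere on chromosome 17. The probe set of Kifc5b itself was dim, at 137 and 199 against 137 and 167, with a change of -0.12. Kif15, a motor that backs up Kif11, had the largest value in the list, 0.80, but its SE was 0.51 and its wild-type arrays were at 29.98 and 4.85, so its size cannot be read.

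None of the motors that act on chromosomes passed, and the groups overlapped for Kif4 and, on its brightest probe set, for Kif2c. Kif22 (Kid), a chromosome arm motor, was at 4297 and 3201 in the wild type and 5023 and 4393 in the knockout. This was a change of 0.34 on the log2 scale (SE 0.12, limma adjusted p = 0.111). The probe set used for Kif22 is of a kind that can cross-hybridise. Its other 2 probe sets had 0.26 and 0.22, all 3 in the same direction. For Kif22 the change became 0.55 or 0.13 when the first or second wild-type array was dropped. With the first or second knockout array dropped, it became 0.24 or 0.44. Kif18a, which damps chromosome movements at metaphase, was at 641 and 684 against 804 and 884.4, a log2 change of 0.34 that missed the threshold narrowly (adjusted p = 0.0527). Its relative Kif18b was at 456 and 429 against 559 and 560 (0.33, adjusted p = 0.0867). Kif4, a chromosome and midzone motor, overlapped between groups, at 663 and 869 against 821 and 1005 (0.25, adjusted p = 0.306). So did Kif2c (MCAK), which removes wrong kinetochore attachments by depolymerising microtubules, at 1775 and 2040 against 2142 and 2027 (0.13, adjusted p = 0.39). The probe set used for Kif2c is of the same kind as that of Kif22. Another did not overlap, at 546 and 564 against 653 and 722 (0.30), and the remaining ones had 0.06 and -0.25. None of them passed.

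Of the remaining motors of cytokinesis none passed. Kif20b was at 1219 and 1312 in the wild type and 1525 and 1532 in the knockout (0.27, SE 0.08, limma adjusted p = 0.0519). Kif23 (MKLP1), which with Racgap1 forms the centralspindlin complex, was at 2342 and 2391 against 2800 and 2662 (0.21, SE 0.07, adjusted p = 0.081). In both genes the groups did not overlap on the probe set used. The dimmer probe sets of Kif20b had 0.25, 0.17 and -0.18, and those of Kif23 had 0.13 and 0.31. Kif14, a midbody motor, was dim at 45.03 and 69.7 against 58.0 and 47.4, with a change of -0.08 and an SE of 0.35. Kif2b lay below the filter, at 25.5 and 2.39 against 12.1 and 18.0, and was not tested. At an adjusted p under 0.10, a threshold added after seeing the data, 6 mitotic kinesins were higher and 0 lower, where 8.15% of all genes were higher and 9.01% lower. Leaving out 1 array gave the mitotic kinesins a median of 0.22 to 0.27.

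**Figure D2:**
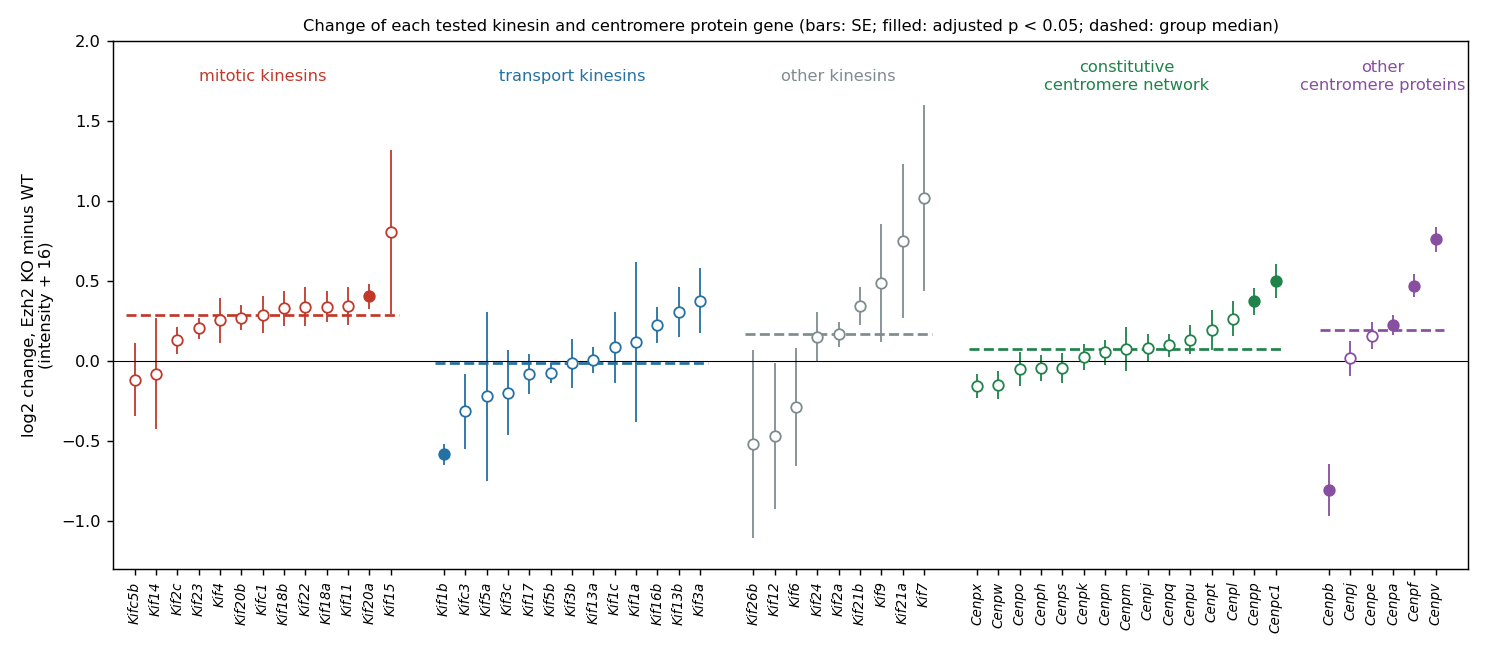
Log2 change (Ezh2 KO minus wild type, intensity + 16) of each of the 56 tested genes, grouped by role and ordered by value, with its SE as a bar, filled points for an adjusted p under 0.05 and a dashed line at each group's median. The mitotic kinesins cluster near their median of 0.29, the transport kinesins lie on both sides of 0 with Kif1b at -0.58, and dim genes such as Kif15 and Kif7 carry the longest bars.

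The transport kinesins had no common direction. Of 13 tested genes 6 had a positive and 7 a negative log2 change, with a median of -0.01 (-0.11 with median centring, where all genes had -0.09). Called were 0 higher and 1 lower (7.69%, beside 6.01% of all genes). The numbers were again 0 and 1 at an unadjusted limma p under 0.05, beside 11.8% and 13.1% of all genes. The groups did not overlap in 3 genes that were higher and 4 that were lower, where all genes had 26.2% in each direction. The median of the mitotic kinesins exceeded that of the transport kinesins by 0.30 on the log2 scale. This difference has no test of its own, since the lists were chosen with results known. It was 0.22 to 0.34 when 1 array was left out and 0.23 with averaged probe sets, and 0.29 over members above 100 intensity units, a limit added after seeing the data.

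The median deviation of the mitotic kinesins from each gene's own mean was -0.18 and -0.09 on the wild-type arrays and 0.13 and 0.14 on the knockout arrays. For the transport kinesins it was 0.02 and 0.002 against -0.03 and 0.04, and for the centromere proteins -0.003 and -0.03 against 0.04 and 0.06. Only the first of these lists separated the arrays by more than 0.1. The arrays of a group differed most for the mitotic kinesins in the wild type, where replicate 1 was the lower.

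**Figure D3:**
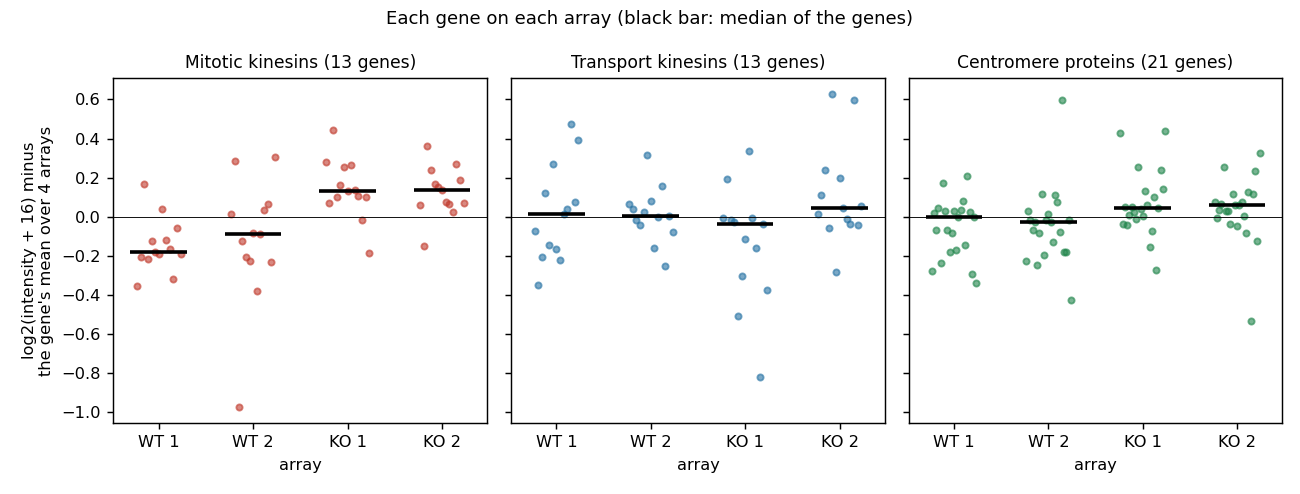
Log2(intensity + 16) of each gene on each array minus that gene's mean over the 4 arrays, for 13 mitotic kinesins, 13 transport kinesins and 21 centromere proteins, with the median of the genes as a black bar. The medians of the mitotic kinesins are -0.18 and -0.09 on the wild-type arrays and 0.13 and 0.14 on the knockout arrays, and those of the transport kinesins stay between -0.03 and 0.04.

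Kif1b, a kinesin that carries mitochondria and synaptic vesicle precursors, was the transport gene that fell. Its brightest probe set stood at 3072 and 3170 in the wild type and at 2061 and 2092 in the knockout, with means of 3121 ± 69.5 and 2076 ± 21.9. The groups were far apart relative to their spread, and the log2 change was -0.58 (SE 0.07, limma adjusted p = 0.000482). It kept its call with median centring (-0.68), and it was -0.61 to -0.56 without 1 array. Kif1b had 7 probe sets above the filter, and a second bright one fell too, from 2011 and 1904 to 1256 and 1147 (-0.70, adjusted p = 0.00122 in the fit of all 25576 probe sets). The third had 290 and 226 against 135 and 195 (-0.61, not passed). A further one was level, at 378 and 356 against 379 and 367 (0.02), and the other 3 were weaker, with changes from -0.23 to 0.14. The mean of all its probe sets gave -0.30 (adjusted p = 0.173), so the fall was seen in part of the probe sets. Which transcripts each reads was not analysed here.

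The brightest of the other transport motors did not pass. Kif5b, the conventional kinesin heavy chain of most cells, was at 3498 and 3328 in the wild type and 3245 and 3233 in the knockout. The log2 change was -0.07 with a 95% interval of -0.22 to 0.07 (limma adjusted p = 0.537). Its 6 probe sets ran from -0.19 to 0.36 and none passed, and their mean gave 0.055. Kif13a, a recycling endosome motor, was at 1155 and 1272 against 1208 and 1228 (0.007, interval -0.18 to 0.19). Its sign turned under several settings. Kif16b, an early endosome motor, was at 796 and 911 against 911 and 1091 (0.22, adjusted p = 0.252).

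Heterotrimeric kinesin-2, the motor of cilia and of vesicle transport, had no called motor subunit. Kif3a was at 135 and 142 in the wild type and 207 and 166 in the knockout (0.38, SE 0.20, limma adjusted p = 0.291). All 4 of its probe sets had nearly the same change, from 0.37 to 0.39, and none passed. Kif3b was at 245 and 242 against 242 and 241 on its brightest probe set (-0.01), while its other 3 had 0.26, 0.57 and 0.64, none passed. Kifap3, the accessory subunit that binds both, did rise, from 549 and 429 to 685 and 744 (0.54, SE 0.13, adjusted p = 0.0259). With no intensity filter it lost its call (limma adjusted p = 0.0559), and its change was 0.37 to 0.72 without 1 array. Kif3c, Kif1a and Kif5a, mainly neuronal, had mean intensities under 100 and changes of -0.20, 0.12 and -0.22. Kif5c and Kifc2 were below the filter on every probe set. The remaining tested genes, Kif13b (0.31), Kif1c (0.08), Kif17 (-0.08) and Kifc3 (-0.32), did not pass, at adjusted p of 0.269, 0.868, 0.761 and 0.468.

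**Figure D4:**
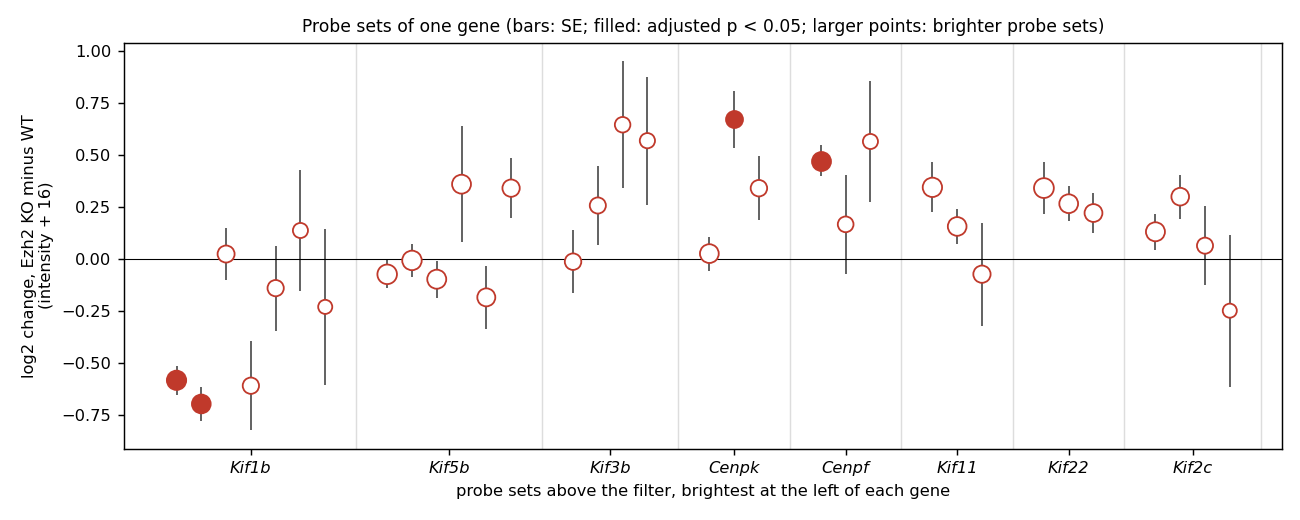
Log2 change (Ezh2 KO minus wild type, intensity + 16) of every probe set above the filter for 8 genes, brightest at the left within each gene, with SE bars, filled points for an adjusted p under 0.05 over all probe sets and larger points for brighter probe sets. Kif1b has 2 called probe sets at -0.58 and -0.70 beside a level one at 0.02, Cenpk has a called probe set at 0.67 beside its brightest at 0.02, and the probe sets of Kif22 agree.

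Among the other kinesins 0 of 9 tested genes were called, where 5.55% of all genes were higher and 6.01% lower. At an unadjusted limma p under 0.05 there were 1 higher and 0 lower, beside 11.8% and 13.1% of all genes. Kif2a, a microtubule depolymerase of neurons and spindle poles, was at 1174 and 1136 in the wild type and 1320 and 1277 in the knockout (0.17, adjusted p = 0.222). Kif21b, which limits microtubule growth, was at 447 and 411 against 520 and 579 (0.34, adjusted p = 0.0942). Kif24, a centriole protein that restrains cilia, overlapped between groups (0.15), and its 3 probe sets ran from -0.50 to 0.24. Kif6 (-0.29), Kif7, Kif9, Kif12, Kif21a and Kif26b were dim, with SEs from 0.37 to 0.59. Neither a change nor its absence can be read from them. Kif26a, Kif27 and Kif28 were not tested.

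The 21 centromere proteins all passed the filter, and 6 changed, 5 higher (23.8%, beside 5.55% of all genes) and 1 lower (4.76%, beside 6.01%). Of the 21 genes 15 had a positive log2 change (50.9% of all genes did), and the groups did not overlap in 11 that were higher and 5 that were lower, beside 26.2% of all genes in each direction. Their median was 0.08 against 0.007 over all genes. With median centring it was -0.01 against -0.09, and 10 of 21 were positive, beside 5224 of all 13916 genes. Called at that setting were 3 higher and 1 lower, beside 402 and 1014 of all genes. Without 1 array the median of the centromere proteins was 0.06 to 0.11. In the fit of every probe set, 5 of the 37 centromere probe sets above the filter were called higher and 1 lower, with Cenpk in place of Cenpa. There 7.92% of all probe sets passed, 4.03% higher and 3.89% lower.

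Of the outer kinetochore proteins Cenpf and Cenpe the first passed, as did the centromeric histone. Cenpf, a large coiled-coil protein of the outer kinetochore that accumulates in G2 and mitosis, was at 1558 and 1682 in the wild type and at 2256 and 2244 in the knockout. The groups did not overlap, with means of 1620 ± 87.8 and 2250 ± 8.49, and the rise was 1.39-fold (log2 0.47, SE 0.07, limma adjusted p = 0.00297). Its 2 dimmer probe sets had 0.17 and 0.56, and averaging all 3 gave 0.40 (adjusted p = 0.0845). Cenpa, the histone H3 variant that marks the centromere, was at 3507 and 3669 against 4154 and 4231. It rose 1.17-fold (0.22, SE 0.06, adjusted p = 0.0483), close to the threshold, and lost its call with median centring (0.13). Its change was 0.19 and 0.26 without the first and second wild-type arrays. It was 0.24 and 0.21 without the first and second knockout arrays. Cenpe, itself a kinesin that moves chromosomes to the spindle equator, was at 1559 and 1352 against 1582 and 1665 (0.16, adjusted p = 0.302), and counting it among the mitotic kinesins gave the latter a median of 0.28.

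Cenpv showed the largest rise of any member that was called. This protein takes part in organising centromeric chromatin and in cytokinesis. It was at 1250 and 1178 in the wild type and at 2150 and 1988 in the knockout, with means of 1214 ± 51.0 and 2069 ± 115. The rise was 1.70-fold (log2 0.76, SE 0.08, limma adjusted p = 0.000285), far beyond the spread within the groups. Without 1 array it was 0.71 to 0.82 on the log2 scale. A single probe set reads Cenpv. Cenpb, which binds a short DNA box in the minor satellite repeats of mouse centromeres, moved the other way. It was at 433 and 572 in the wild type and at 305 and 252 in the knockout, 1.75-fold lower (-0.81, SE 0.16, adjusted p = 0.0117). Its wild-type arrays lay far apart, and without wild-type replicate 2 the call was lost (-0.61, adjusted p = 0.0794). A second probe set of Cenpb lay below the filter on all arrays, and averaging both gave -0.41 (adjusted p = 0.341). Cenpj, which builds centrioles rather than centromeres, was at 734 and 725 against 811 and 674 (0.02).

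The constitutive centromere network, the group of proteins that sits on Cenpa chromatin through the whole cell cycle, had few called members. Of 15 tested genes 2 were higher (13.3%, beside 5.55% of all genes) and 0 lower, and the median was 0.08 (-0.02 with median centring). At an unadjusted limma p under 0.05 there were 3 higher and 0 lower, beside 11.8% and 13.1% of all genes. Cenpc1, which joins the Cenpa nucleosome to the rest of the kinetochore, was at 1326 and 1374 in the wild type and at 2165 and 1692 in the knockout. The knockout arrays were apart from each other yet both above the wild type, and the rise was 1.41-fold (0.50, SE 0.11, adjusted p = 0.0162). With median centring it passed narrowly (0.40, adjusted p = 0.0482), and its change was 0.32 to 0.68 without 1 array. Cenpp, of the Cenpo subcomplex, rose 1.30-fold from 1030 and 1021 to 1400 and 1272 (0.37, SE 0.08, adjusted p = 0.0189), and its other 2 probe sets had 0.31 and 0.43. Its call was lost with median centring (0.28), and its change was 0.31 to 0.44 without 1 array.

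Neighbours of these proteins in the same network did not pass. Cenpo, Cenpu and Cenpq, which share the subcomplex with Cenpp, had -0.05, 0.13 and 0.10, with Cenpq at 1693 and 1777 against 1844 and 1875. Cenph, Cenpi, Cenpk and Cenpm, which form another subcomplex, had -0.04, 0.08, 0.02 and 0.08. The probe sets of Cenpk disagreed in size: its brightest was at 1699 and 1571 against 1601 and 1726, while another rose from 282 and 257 to 414 and 463 (0.67, SE 0.14, limma adjusted p = 0.0181 over all probe sets). Cenpl and Cenpn, which contact the Cenpa nucleosome, had 0.26 and 0.05. Among the histone-fold members Cenpt had 0.19, Cenps -0.04, Cenpw -0.15 and Cenpx -0.16. Cenpx was tight within groups, at 1537 and 1530 against 1378 and 1372, but did not pass (adjusted p = 0.223).

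Partner genes of these proteins, listed by known role, were read in the same way. Of 12 passenger and midzone genes all 12 had a positive log2 change, 4 of them called (33.3%, beside 5.55% of all genes). Their median was 0.19. With median centring it was 0.09, and 11 of 12 were positive, beside 5224 of all 13916 genes. Racgap1, the partner of Kif23, rose from 1371 and 1385 to 1815 and 1829 (0.40, SE 0.07, limma adjusted p = 0.00635). Hmmr and Tpx2, spindle assembly factors, had 0.34 and 0.30, and Prc1, which bundles midzone microtubules and binds Kif4, had 0.29, all past the threshold. Of 21 kinetochore genes 17 were positive, 2 were called higher (9.52%, beside 5.55% of all genes) and 0 lower. The called genes were Ndc80, the microtubule-binding protein of the outer kinetochore, at 0.42, and the checkpoint kinase Bub1, at 0.29. At an unadjusted limma p under 0.05 there were 10 higher and 0 lower, beside 11.8% and 13.1% of all genes. With median centring Racgap1 (0.30), Hmmr (0.25), Tpx2 (0.20), Prc1 (0.20), Ndc80 (0.32) and Bub1 (0.19) lost their calls. With averaged probe sets the change of Racgap1 was 0.16 (adjusted p = 0.487), and Tpx2 (0.24), Hmmr (0.32) and Bub1 (0.29) lost their calls too. Without 1 array the changes were 0.39 to 0.41 for Racgap1, 0.32 to 0.36 for Hmmr and 0.27 to 0.33 for Tpx2. They were 0.27 to 0.32 for Prc1, 0.33 to 0.50 for Ndc80 and 0.24 to 0.34 for Bub1. Of 5 genes that load Cenpa 0 were called in either direction, where 11.6% of all genes were, and 0 had an unadjusted limma p under 0.05. Their median was 0.04. Of 10 cargo adaptor genes, the partners of transport kinesins, 5 were positive and Kifap3 was the called gene (10%, beside 5.55% of all genes higher).

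The promoters of mitotic and transport kinesins differ in their letters, and they are given here as a description. A link between promoter words and changes was not tested. Genes that peak in G2 and mitosis often carry a cell cycle homology region (CHR), a short element near the start that is bound by the MuvB complexes, and boxes bound by the factor NF-Y. The sequences below come from RefSeq for GRCm38.p6, read 5′ to 3′ on the strand of the gene, from 220 bases before the annotated start to 30 after it. Capitals mark CHR words (TTTGAA or TTCGAA) and NF-Y boxes (CCAAT), searched on both strands, so that a box on the other strand reads ATTGG and a CHR word TTCAAA. Cenpf (chr1:189688057-189688306, minus strand), Cenpa (chr5:30666666-30666915, plus strand), Kif11 (chr19:37376162-37376411, plus strand) and Kif23 (chr9:61946770-61947019, minus strand) are shown as examples that hold a CHR word and an NF-Y box. Kif1b (chr4:149307704-149307953, minus strand), the transport gene that fell, and Cenpv (chr11:62539232-62539481, minus strand), the member that rose most among those called, are shown beside them.
Cenpf: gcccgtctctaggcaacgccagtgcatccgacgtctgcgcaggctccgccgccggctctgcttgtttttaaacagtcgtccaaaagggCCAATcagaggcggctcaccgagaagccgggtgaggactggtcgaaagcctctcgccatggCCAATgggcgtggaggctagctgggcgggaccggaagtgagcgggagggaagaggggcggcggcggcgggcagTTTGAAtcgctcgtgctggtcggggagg
Cenpa: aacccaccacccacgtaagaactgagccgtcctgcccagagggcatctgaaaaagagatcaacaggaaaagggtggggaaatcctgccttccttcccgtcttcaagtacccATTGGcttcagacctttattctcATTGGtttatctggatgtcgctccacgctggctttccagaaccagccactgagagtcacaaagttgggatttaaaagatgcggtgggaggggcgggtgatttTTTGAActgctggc
Kif11: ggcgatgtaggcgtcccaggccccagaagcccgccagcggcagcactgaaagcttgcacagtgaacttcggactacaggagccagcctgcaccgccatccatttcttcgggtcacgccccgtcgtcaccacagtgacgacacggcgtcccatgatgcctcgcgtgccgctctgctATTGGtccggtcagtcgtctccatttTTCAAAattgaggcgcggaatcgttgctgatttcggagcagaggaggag
Kif23: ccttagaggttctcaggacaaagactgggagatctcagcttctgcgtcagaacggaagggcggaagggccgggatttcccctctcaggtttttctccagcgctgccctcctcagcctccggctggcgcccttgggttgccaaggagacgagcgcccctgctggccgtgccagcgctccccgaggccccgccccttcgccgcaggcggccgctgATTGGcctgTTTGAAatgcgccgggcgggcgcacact
Kif1b: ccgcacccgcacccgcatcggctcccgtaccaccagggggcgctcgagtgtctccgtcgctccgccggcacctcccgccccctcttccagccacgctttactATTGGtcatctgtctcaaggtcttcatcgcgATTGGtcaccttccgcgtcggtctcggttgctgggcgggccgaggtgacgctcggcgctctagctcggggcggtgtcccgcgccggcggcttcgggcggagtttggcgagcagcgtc
Cenpv: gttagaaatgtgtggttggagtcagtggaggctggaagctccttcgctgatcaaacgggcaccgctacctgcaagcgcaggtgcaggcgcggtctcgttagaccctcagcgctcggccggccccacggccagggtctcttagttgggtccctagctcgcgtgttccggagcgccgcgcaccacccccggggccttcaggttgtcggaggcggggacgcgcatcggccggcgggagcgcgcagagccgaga

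In these windows Cenpf has a CHR word 3 to 8 bases after the start and 2 NF-Y boxes upstream of it. Cenpa has a CHR word 17 to 22 bases after the start, and Kif23 has one 3 to 8 bases after it. In Kif11 the word lies on the other strand, at -19 to -14. Kif1b has 2 NF-Y boxes and no CHR word in this window, and Cenpv has neither.

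Promoter windows of 300 bases, from 250 before the start to 50 after it, were given for 54 of the 62 members. The others are Kif13b, Kif20a, Kif21b, Kif28, Kif5a, Kif5b, Kifc2 and Kifc3. Of 13 mitotic kinesins with a window 11 held a CHR word (84.6%) and 8 held both a CHR word and an NF-Y box (61.5%). These are not the same 13 genes as those tested: Kif2b had a window but was not tested, and Kif20a had no window. Of 10 transport kinesins 1 held a CHR word (10%), in the second of the windows of Kif1a, and 0 held both. Over all 27025 genes with a window the shares were 21.7% and 9.65%, and over the 11231 of them that were tested 16.6% and 7.91%. A CHR word within 50 bases of the start was found in 9 of the 13 mitotic kinesins (69.2%) and in 6.12% of all genes. Of the 6 other centromere proteins 2 held a CHR word (33.3%), Cenpf and Cenpa, while Cenpe held an NF-Y box but no CHR word. Of 10 other kinesins 3 held a CHR word (30%). In the constitutive network CHR words were fewer than in the mitotic kinesins. Of its 15 genes 4 held a CHR word (26.7%) while 11 held an NF-Y box (73.3%, beside 41.1% of all genes). Words for E2F sites (TTTCCCGC, TTTCGCGC, TTTGCCGC or TTTGGCGC, either strand) were in 3 of these 15 genes, in 2 of the mitotic and 0 of the transport kinesins, and in 2.6% of all genes. Kif18a, at 0.34, held an E2F word but no CHR word in its window. Kif14 (-0.08) and Kifc5b (-0.12), the 2 tested mitotic kinesins with a negative change, held both a CHR word and an NF-Y box. These matches are descriptions of the letters in the windows and say nothing of binding.

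**Figure D5:**
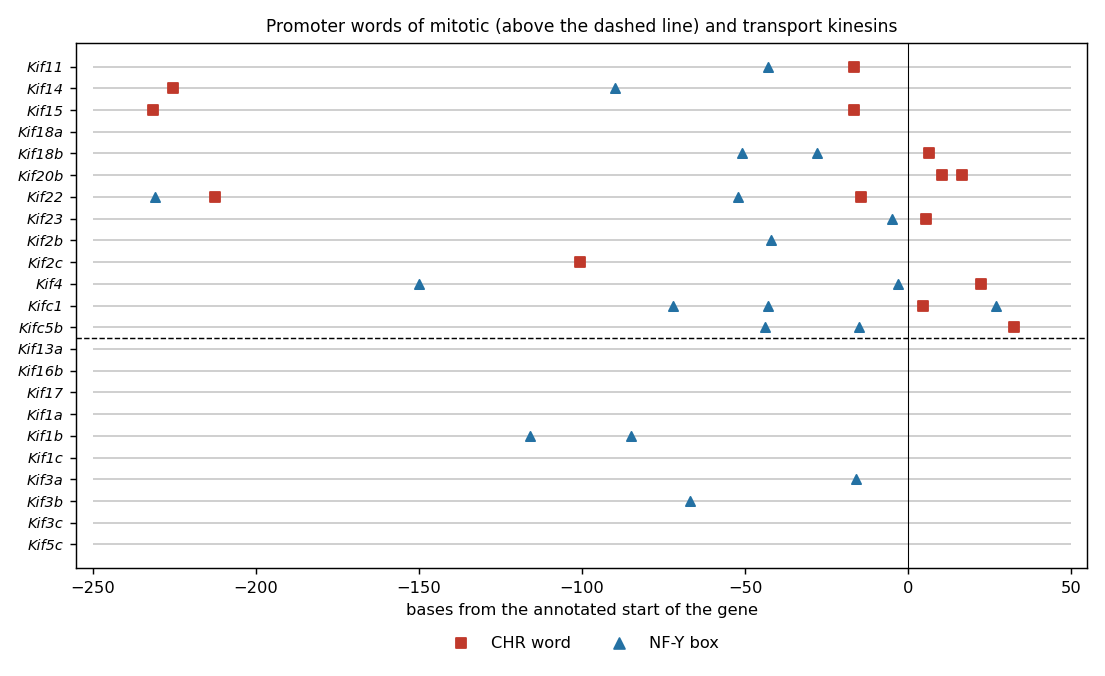
Position of CHR words (squares) and NF-Y boxes (triangles) in bases from the annotated start, in the first promoter window of each of 13 mitotic kinesins (above the dashed line) and 10 transport kinesins (below it). CHR words lie in 11 of the 13 mitotic genes, most of them close to the start, and NF-Y boxes occur in 3 of the 10 transport genes.

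Member medians ran from 0.05 to 0.21 by the words held. The 16 tested members with a CHR word and an NF-Y box had a median log2 change of 0.21, with 12 positive and 2 called higher, Cenpa and Cenpf. The 4 with a CHR word alone had 0.20, all 4 positive, and the 12 with an NF-Y box alone had 0.05, with 7 positive, 1 called higher and 1 lower. The 18 members with neither had 0.13, with 12 positive, 2 called higher and 1 lower. Over all genes tested, the 888 with both had a median of 0.03, with 7.55% called higher and 5.74% lower, and the 5506 with neither had 0.003, with 5.61% higher and 5.83% lower. None of these differences was tested.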

How the data were processed

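Each deposited value is the linear intensity of a probe set on a 1-colour Affymetrix whole-genome mouse array. Per the submitters' processing notes the authors used Affymetrix Expression Console. Its version and algorithm are not given in the sources used here. Each array had a mean of 500.003 after trimming 2% at each end, so a difference in total mRNA per cell is removed. The number of arrays, 2 per group, limits the precision.

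Each gene was read by its probe set of highest mean log2(intensity + 16) among those with 1 symbol. Tested were genes whose mean lay above the 30th percentile of all probe sets other than controls, which is 19.96 in intensity. The test was limma 3.58.1 (R 4.3.3; lmFit, then eBayes with a trended prior variance), with Benjamini-Hochberg adjustment. A second fit took every probe set above the filter. Fold values include the added 16 and so understate the change of dim genes. Levels of different probe sets were not compared. The fit was tested on simulated data.

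Members, lists, tests and promoter words were chosen with earlier results of these data known. Named were members passing either fit, the brightest members of each list up to 4, 8 fixed genes (Kif11, Kif20a, Kif5b, Kif3a, Cenpa, Cenpe, Cenpf, Kifc1) and up to 8 changed partners. All other members were named to account for the whole list. The promoter words and the 6 promoters shown were chosen after the values were seen. Promoters came from RefSeq (GRCm38.p6), and all 143 probe sets matched a RefSeq gene. Alternatives are given in the closing section. Figures were made in matplotlib 3.10.9 under Python 3.11.15.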

Additional observations from a re-analysis of the deposited data

How the results depend on the processing

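The main counts were 1 mitotic kinesin, 1 transport kinesin, 6 centromere proteins and 1608 genes changed. Mitotic kinesins changed numbered 2 with quantile normalization (1554 genes in all) or a pseudocount of 64 (1656 genes). With the filter at the 50th percentile they numbered 3 of the 11 still tested (1845 genes in all). They numbered 6 at an adjusted p of 0.10, added after seeing the data, where 2388 genes (17.2%) passed. With median centring they numbered 0, where 1416 genes passed. With a single prior variance limma called 0 mitotic kinesins, 0 transport kinesins, 0 centromere proteins and 0 genes in all (4, 1, 5 and 2595 at an unadjusted p under 0.05). Averaging probe sets gave 0 transport kinesins, 2 centromere proteins and 1028 genes, and a difference between the medians of mitotic and transport kinesins of 0.23 in place of 0.30. Without 1 array there were 2 to 5 centromere proteins, 831 to 1641 genes and a difference of 0.22 to 0.34. At every setting that difference was positive.

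The labels do not say that replicate numbers pair the samples, and deviations of the replicate 1 arrays from their group means correlated at r = 0.041 over genes. With the replicate number as a block limma called 6 mitotic kinesins and 2719 genes, Kif11, Kif22, Kif23 and Kif21b among the members it added, with 1 transport kinesin and 7 centromere proteins.

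Among the named genes signs turned in 5, none of them past the threshold: Cenpk with median centring (-0.072) and without 1 array (-0.031 to 0.081), Kif13a with median centring (-0.090), averaged probe sets (-0.039) and without 1 array (-0.061 to 0.076), Kif24 with averaged probe sets (-0.035) and without 1 array (-0.020 to 0.32), and Kif5b (0.055) and Kif6 (0.25) with averaged probe sets. At the settings that kept every array, the single prior variance aside, Cenpv always passed. Kif20a missed with median centring alone, and Cenpf and Kif1b with averaged probe sets alone. Cenpa passed at 5 of these settings. Dim probe sets limit the rest: the SE was 0.27 to 0.59 for members under 100 intensity units and 0.06 to 0.24 above.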
